A study of Mus musculus with 4 samples.

Results

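The genes described here are the chemokines Cxcl1, Cxcl2, Cxcl3 and Cxcl5, which act on the receptor CXCR2, and the growth factors Csf2 (GM-CSF) and Csf3 (G-CSF). They were taken by name, and all 6 of them were present among the 35905 genes measured. Poly-A RNA was sequenced from LLC (Lewis lung carcinoma), a lung cancer line of the mouse, whose cells were sorted as TdTomato-positive and CD45-negative cells from subcutaneous flank tumours in C57BL/6 mice 4 weeks after implantation. PAD4-DN hosts were Mrp8Cre+, Padi4fl/fl, and WT hosts were Mrp8Cre-, Padi4fl/fl, so both groups carried the floxed alleles. Mrp8Cre is driven by the S100a8 promoter and is active mainly in neutrophils, where it deletes the floxed gene for peptidylarginine deiminase 4; the cancer cells are not its target. Each group had 2 libraries. Whether the 2 libraries of a group derive from different mice is not given in the labels, so each p-value reflects library-to-library spread, which may be technical.

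Neutrophils follow gradients of chemokines that carry a glutamate-leucine-arginine (ELR) motif ahead of the first cysteine, and CXCR2 is their main receptor for these. In the mouse the ELR chemokine genes lie in a cluster on 1 chromosome and are classical targets of NF-kB downstream of interleukin-1, tumour necrosis factor and Toll-like receptors, while interleukin-17 stabilises their mRNA. Csf3 drives the production of neutrophils in bone marrow and their release from it, and Csf2 acts on granulocytes and macrophages. Some transplanted mouse tumours secrete G-CSF, which raises neutrophil numbers in the host.

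The ELR codons of the 4 chemokines are shown because the motif marks CXCR2 ligands. Each line is a 36-base stretch of the coding sequence of the first GENCODE M21 transcript, all from chromosome 5, with the 3 ELR codons in capitals.
Cxcl1: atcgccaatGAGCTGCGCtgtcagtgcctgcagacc
Cxcl2: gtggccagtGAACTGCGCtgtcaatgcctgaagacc
Cxcl3: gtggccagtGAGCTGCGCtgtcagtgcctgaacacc
Cxcl5: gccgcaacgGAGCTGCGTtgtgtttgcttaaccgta
The motif begins at codon 30 of 96 in Cxcl1, codon 33 of 100 in Cxcl2, codon 33 of 100 in Cxcl3 and codon 50 of 132 in Cxcl5. Cxcl1 had none of its 1932 distinct 31-base words in any other gene of that transcript set. Cxcl2 had 161 of 2121 such words (7.59%) in other genes, with Cxcl3 as the only partner, so the split of reads between Cxcl2 and Cxcl3 is an estimate. Cxcl3 had 193 of 3534 words (5.46%) in other genes, with Cxcl2 as the first partner. Csf3 shared none and Csf2 shared 3 of 770.

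The promoters of Cxcl1, Cxcl2 and Cxcl3 are shown because these genes are textbook NF-kB targets. RefSeq promoter sequences on GRCm38.p6 matched 4 of the 6 genes (Cxcl1, Cxcl2, Cxcl3 and Csf2). The 250 bases before each start were searched on both strands for a 10-base NF-kB motif and for the TATA-type motif ATAAAAGG. The NF-kB motif is the first run of capitals in each line below and the TATA-type motif is the second, and they do not overlap. Each stretch below runs from 25 bases before the NF-kB motif to 10 bases after the TATA-type motif, on the plus strand.
Cxcl1, chr5:90891149-90891228: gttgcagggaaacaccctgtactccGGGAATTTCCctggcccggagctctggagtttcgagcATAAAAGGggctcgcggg
Cxcl2, chr5:90903777-90903859: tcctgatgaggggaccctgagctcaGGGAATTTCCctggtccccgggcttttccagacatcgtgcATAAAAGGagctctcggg
Cxcl3, chr5:90786003-90786089: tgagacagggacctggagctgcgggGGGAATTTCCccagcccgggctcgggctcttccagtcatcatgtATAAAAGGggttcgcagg
The NF-kB motif began 71, 97 and 73 bases before the listed start of Cxcl1, Cxcl2 and Cxcl3 in this order. It stood 27, 30 and 34 bases ahead of the TATA-type motif in the same order. Of 32851 promoters searched, 28 held this exact spelling of the NF-kB motif (0.0852%) and 507 held the TATA-type motif (1.54%). Other spellings that NF-kB can bind were not searched, so the share is not that of all NF-kB sites. Neither exact spelling was in the Csf2 window, whose listed start lies 232 bases from the start of the GENCODE transcript.

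The libraries held 20036322 and 24142484 estimated counts in PAD4-DN and 23414984 and 25327974 in WT. Padi4 had 6 and 0 counts in PAD4-DN and 0 and 2 counts in WT. As the deletion lies in host neutrophils, Padi4 in the sorted cells is no check of it or of the labels. Among the carcinoma markers, the simple-epithelium keratin Krt8 was at 178 and 131 TPM in PAD4-DN and at 148 and 138 TPM in WT. Its partner Krt18 was lower in both PAD4-DN libraries, at 208 and 184 TPM against 227 and 214 TPM in WT. So was Krt19, at 0.770 and 0.394 TPM against 1.83 and 1.76 TPM in WT. Their log2 fold changes of −0.25 and −1.19 did not pass, and 17.4% of tested genes were lower in both PAD4-DN libraries in CPM. Epcam and Cdh1, which mark junction-forming epithelia, had at most 7 counts in any library. TPM, the level scaled for transcript length and library total, lets levels be set side by side between genes. The leukocyte antigen gene Ptprc (CD45), against which the cells were sorted, was at 1.88 and 0.324 TPM in PAD4-DN and at 0.713 and 0.551 TPM in WT. The CD45 gate does not remove fibroblasts, whereas the TdTomato gate selects labelled LLC cells and would remove unlabelled host cells. In the sorted cells 9 of 9 genes of the fibroblast list were detected, summing to 6740 and 4390 TPM in PAD4-DN and to 4350 and 4730 TPM in WT. Collagen Col1a1, chosen from that list after its values were seen, was at 161 and 4.14 TPM in PAD4-DN and at 3.67 and 127 TPM in WT. Pi16 had the same high and low libraries, at 8.04 and 0.519 TPM in PAD4-DN and at 0.305 and 6.24 TPM in WT. Thy1, Pdgfrb, Col3a1 and Pdgfra were also higher in PAD4-DN replicate 1 and WT replicate 2 than in the other libraries. Dcn, Lum and Dpt did not follow that pattern. Dcn was at 911 and 961 TPM in PAD4-DN and at 840 and 692 TPM in WT. Lum was at 219 and 430 TPM against 251 and 273 TPM, and Dpt at 241 and 170 TPM against 118 and 141 TPM, in the same order. In bulk samples, fewer cells of a type and less RNA per cell cannot be told apart.

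Cxcl1 was the dominant transcript of the set in every library. Its level was 378 and 230 TPM in PAD4-DN and 148 and 173 TPM in WT. Both PAD4-DN libraries lay above both WT libraries, and PAD4-DN replicate 1 was the highest. Its mean over the 4 libraries was above that of 96.8% of the 13718 genes tested. Cxcl1 made up 92.9% and 91.0% of the summed TPM of the 4 chemokines in PAD4-DN and 88.3% and 92.8% in WT.

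Cxcl5, in mouse a chemokine of epithelial cells, came next. It was at 13.6 and 19.2 TPM in PAD4-DN and at 16.9 and 9.56 TPM in WT. The genotypes overlapped, and the lowest Cxcl1 value was above the highest Cxcl5 value. Cxcl2, a chemokine best known from macrophages and neutrophils, was at 13.9 and 3.23 TPM in PAD4-DN and at 1.48 and 2.91 TPM in WT. PAD4-DN replicate 1 stood far above the rest, and the other PAD4-DN library lay close to WT replicate 2. Cxcl3, the least abundant of the 6, had 21 and 4 counts in PAD4-DN and 17 and 12 counts in WT. That is 1.54 and 0.301 TPM in PAD4-DN and 1.10 and 0.835 TPM in WT, with both extremes in PAD4-DN.

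Of the growth factors, Csf3 was at 1.23 and 13.3 TPM in PAD4-DN and at 6.79 and 2.21 TPM in WT. PAD4-DN held both the lowest and the highest library. The 2 PAD4-DN libraries differed 10.9-fold in CPM (counts scaled to library size, not length), replicate 2 over replicate 1, and the WT libraries 3.23-fold, replicate 1 over replicate 2. Csf2 was low throughout, with 10 and 20 counts in PAD4-DN and 17 and 9 counts in WT, or 1.22 and 2.08 TPM in PAD4-DN against 1.67 and 0.867 TPM in WT. Its genotypes overlapped as well.

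By mean TPM over the 4 libraries the order was Cxcl1 (232 TPM), Cxcl5 (14.8 TPM), Csf3 (5.88 TPM), Cxcl2 (5.38 TPM), Csf2 (1.46 TPM) and Cxcl3 (0.944 TPM). Below Cxcl1 the ranges of neighbours overlapped at each step, so the order of Cxcl5, Csf3, Cxcl2, Csf2 and Cxcl3 is not fixed by these libraries. In PAD4-DN replicate 1 Cxcl2 came directly after Cxcl1 and Csf3 came below Cxcl3, while PAD4-DN replicate 2 kept the order of the means. The ranges of Cxcl5 lay wholly above those of Csf2 and Cxcl3.

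**Figure D1:**
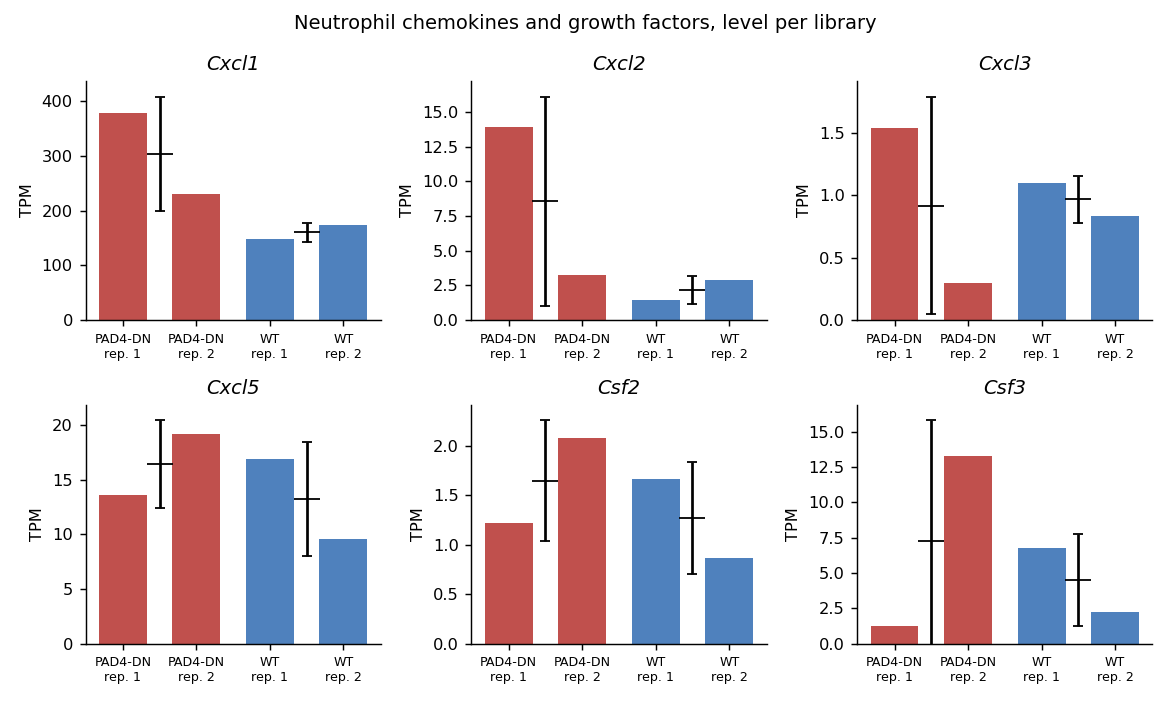
Level of each gene in TPM (y axis, linear, starting at 0 and scaled per gene) in each library, PAD4-DN in red and WT in blue; black marks are the genotype mean and SD (n = 2 each), cut at 0 for Csf3. Only Cxcl1 exceeds 20 TPM in any library, at 378 TPM in PAD4-DN replicate 1, and Csf3 is highest in PAD4-DN replicate 2 and lowest in PAD4-DN replicate 1.

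The comparison asked whether these transcripts differ in tumour cells according to whether host neutrophils can make PAD4. None of the 6 genes had an adjusted p under 0.05 in edgeR (quasi-likelihood test on counts), where 0 of 13718 genes did (0%). In the same fit 364 genes had an unadjusted p under 0.05 (2.65%), and 1.23% of genes did so with PAD4-DN higher. DESeq2 called 10 genes and limma-voom 0, none of them among the 6. All 6 genes passed the filter on low counts. Of the 6 log2 fold changes (PAD4-DN over WT) 5 were above 0, against 51.5% of all genes, and their median was 0.44 against 0.01 over all genes.

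For Cxcl1 the mean was 304 ± 104 TPM in PAD4-DN and 160 ± 17.7 TPM in WT (SD, n = 2 each). The edgeR log2 fold change was 0.81 (SE 0.32, 95% interval 0.01 to 1.62), or 1.75-fold, with unadjusted p = 0.0489 and adjusted p = 0.988. The genotypes also did not overlap in CPM, which was so for 15.4% of tested genes in that direction. Without PAD4-DN replicate 1 the log2 fold change was 0.32, and without PAD4-DN replicate 2 it was 1.17.

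For Cxcl2 the mean was 8.57 ± 7.55 TPM in PAD4-DN and 2.19 ± 1.01 TPM in WT (SD, n = 2 each). The edgeR log2 fold change was 1.71 (SE 0.80, 95% interval −0.28 to 3.71), with unadjusted p = 0.0796 and adjusted p = 0.988. Its genotypes did not overlap in TPM, which was so for 22.9% of tested genes in that direction, but they did overlap in CPM, at 10.3 and 2.14 CPM in PAD4-DN against 1.23 and 2.54 CPM in WT. Without PAD4-DN replicate 1 the log2 fold change was 0.17, without PAD4-DN replicate 2 it was 2.44, without WT replicate 2 it was 2.32, and no fit passed the threshold for this gene.

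For the other genes the intervals were wide on both sides of 0. The log2 fold change was −0.05 for Cxcl3 (SE 0.90, 95% interval −2.31 to 2.20, adjusted p = 0.997 by edgeR). It was 0.23 for Cxcl5 (95% interval −0.62 to 1.08), 0.27 for Csf2 (95% interval −1.36 to 1.91) and 0.61 for Csf3 (95% interval −2.10 to 3.31). For these 4 genes the sign changed when some single libraries were left out. The Csf3 value was 1.68 without WT replicate 1 or 1.46 without PAD4-DN replicate 1, and −1.98 without PAD4-DN replicate 2. The Csf3 interval includes a 4-fold difference in either direction, so these libraries could not resolve a difference of that size.

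**Figure D2:**
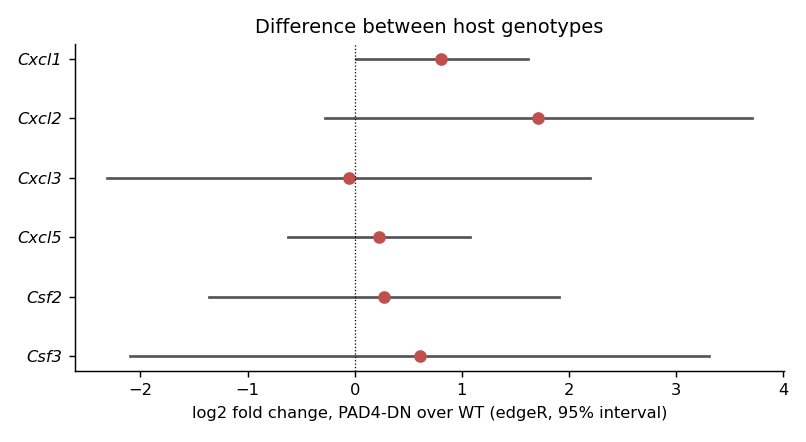
Log2 fold change of each gene (x axis, PAD4-DN over WT, edgeR on counts) with its 95% interval as a line; the dotted line marks 0. The point for Cxcl1 is at 0.81 with an interval from 0.01 to 1.62 before adjustment for the number of genes, and the intervals of the other 5 genes include 0.

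The Cxcl1 reads fell on a spliced protein-coding transcript and on a transcript annotated as retaining an intron. The spliced Cxcl1 transcript was at 304 and 207 TPM in PAD4-DN and at 141 and 121 TPM in WT. The intron-retaining Cxcl1 transcript was at 73.1 and 23.1 TPM in PAD4-DN and at 6.95 and 51.8 TPM in WT. The spliced form did not overlap between genotypes, but the share of all transcripts that did so was not counted. The intron-retaining form was highest in PAD4-DN replicate 1 and WT replicate 2. The spliced form took 64.6% and 79.7% of the gene's estimated counts in PAD4-DN and 90.0% and 50.5% in WT, and the intron-retaining form took the rest.

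In an edgeR fit over 37639 transcripts, added after the data were seen, spliced Cxcl1 had a log2 fold change of 0.86 (SE 0.25, unadjusted p = 0.0228) and intron-retaining Cxcl1 of 0.64 (SE 1.05, unadjusted p = 0.571). No transcript passed after adjustment (0%), and 1.37% had an unadjusted p under 0.05 with PAD4-DN higher. The main coding transcript of Cxcl2 was at 9.76 and 3.04 TPM in PAD4-DN and at 1.16 and 1.91 TPM in WT, with a log2 fold change of 1.95 (SE 0.74, unadjusted p = 0.0543 by edgeR). The more abundant of 2 intron-retaining Cxcl2 transcripts took 27.3% and 8.6% of the gene's counts in PAD4-DN and 36.2% and 46.6% in WT, and the other took at most 1.0% in any library. Csf2 and Csf3 each had 1 transcript in the files.

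**Figure D3:**
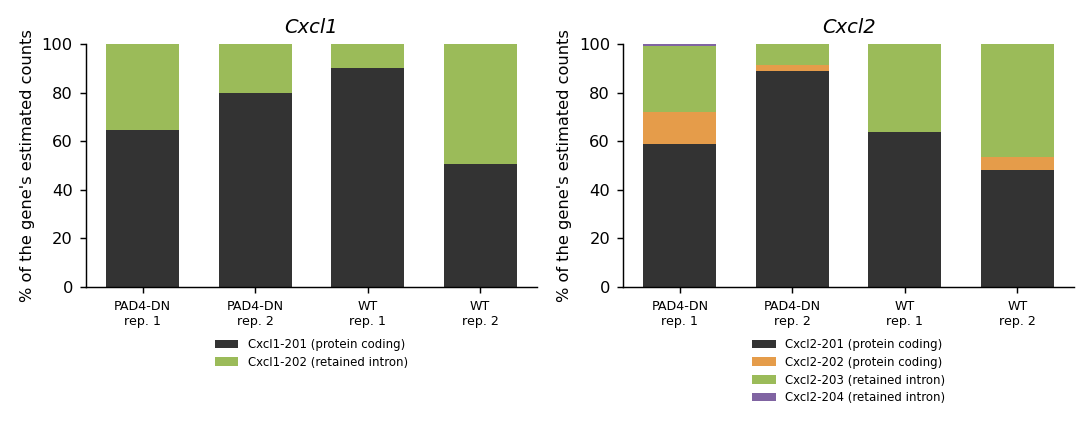
Share of the estimated counts of Cxcl1 (left) and Cxcl2 (right) given to each annotated transcript, in percent, per library. The spliced Cxcl1 transcript ranges from 50.5% in WT replicate 2 to 90.0% in WT replicate 1, and the more abundant intron-retaining Cxcl2 transcript from 8.6% in PAD4-DN replicate 2 to 46.6% in WT replicate 2.

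Among themselves the 6 genes followed different library patterns. Relative to its mean over the 4 libraries on the log2 CPM scale, Csf3 was at −1.66 and 1.67 in PAD4-DN and at 0.82 and −0.83 in WT. Cxcl5 was at −0.11 and 0.38 in PAD4-DN and at 0.30 and −0.57 in WT, and Csf2 at −0.21 and 0.46 against 0.32 and −0.57 in the same order. These 3 genes were higher in PAD4-DN replicate 2 and WT replicate 1 than in the other 2 libraries. Cxcl2 was at 1.79 and −0.43 in PAD4-DN and at −1.18 and −0.19 in WT, so PAD4-DN replicate 1 was highest and WT replicate 1 lowest. Cxcl1 had the same highest and lowest library, at 0.81 and −0.04 in PAD4-DN and at −0.65 and −0.12 in WT, but the 2 libraries between them came in the other order. Over the 4 libraries the root mean square difference between 2 such patterns was 0.06 for Cxcl5 and Csf2 and 0.59 for Cxcl1 and Cxcl2, and 2.27 for Cxcl2 and Csf3. With 4 points these are descriptions only, and the low counts of Csf2 add to its error.

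The range over libraries was wide for Csf3, Cxcl2 and Cxcl3. The highest library exceeded the lowest by 10.9-fold in CPM for Csf3 and by 8.36-fold for Cxcl2, a spread larger than that of 97.6% and 97.1% of tested genes in this order. It was 6.11-fold for Cxcl3, 2.76-fold for Cxcl1 and 2.35-fold for Csf2. Thus 3 of 6 genes reached a 4-fold range, against 6.77% of tested genes, and 2 of 6 an 8-fold range, against 3.11%. These shares are over tested genes of all levels, and genes of like counts were not compared. The range of Cxcl3 lay between 4 and 21 counts. Cxcl5 had the narrowest spread, at 1.95-fold.

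The protein-coding genes whose centred log2 CPM pattern lay nearest to that of each member were named among 9679 genes of at least 5 CPM. For Cxcl1 they were Nfkbia, Tsc22d3, Zfhx4, Add3 and Tppp3. Nfkbia was at 286 and 164 CPM in PAD4-DN and at 107 and 181 CPM in WT, a root mean square difference of 0.109 from Cxcl1. For Cxcl2 they were Tnfaip3 (difference 0.259), Itih5, Abca9, Scn7a and Synpo2, with Tnfaip3 at 174 and 40.7 CPM in PAD4-DN and at 28.4 and 70.8 CPM in WT. The nearest to Cxcl5 were Ero1l (0.057), Tiparp, Bhlhe41, Gata6 and Bhlhe40. The nearest to Csf2 were Cxcl5, Ero1l, Tiparp, Hao1 and Lif. For Csf3 they were Mmp10 (0.429), Mmp13, Grem1, Mmp12 and Fgfbp3. For Cxcl3 they were Olfml2b (0.257), Lcp1, Igfbp3, Lama4 and Stra6.

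The receptors for these ligands were low in the sorted cells. Cxcr2, the receptor of all 4 chemokines, was at 1.80 and 1.96 TPM in PAD4-DN and at 1.12 and 0.830 TPM in WT. Both PAD4-DN libraries lay above both WT libraries, which was so in TPM for 22.9% of tested genes. The Cxcr2 log2 fold change was 0.87 (SE 0.36, adjusted p = 0.988 by edgeR). Cxcr1 had 0 counts in every library. The G-CSF receptor Csf3r had 35 and 3 counts in PAD4-DN and 5 and 12 counts in WT. The GM-CSF receptor alpha chain Csf2ra was at 1.20 and 0.287 TPM in PAD4-DN and at 0.319 and 0.403 TPM in WT, and the beta chain Csf2rb at 1.56 and 0.285 TPM against 0.457 and 1.68 TPM in the same order. Csf2rb2, a second mouse beta chain used by interleukin-3, was at 1.14 and 0.317 TPM in PAD4-DN and at 0.525 and 0.402 TPM in WT. PAD4-DN replicate 1 was highest and PAD4-DN replicate 2 lowest for Csf3r, Csf2ra and Csf2rb2. The atypical receptor Ackr3, which binds Cxcl12, was the most abundant of the list, at 11 and 5.66 TPM in PAD4-DN and at 7.99 and 9.82 TPM in WT. The chemokine-binding Ackr1 had 14 and 0 counts in PAD4-DN and 0 and 6 counts in WT. Of 6 receptors tested 5 had a log2 fold change above 0, with a median of 0.44, and none passed. That median was −0.82 without PAD4-DN replicate 1 and 0.93 without PAD4-DN replicate 2.

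Of the other ELR-motif or CXCR2-binding genes, Cxcl15 had 0 counts in both PAD4-DN libraries and 1 count in each WT library. Ppbp, a platelet chemokine, was at 1.22 and 1.32 TPM in PAD4-DN and at 1.61 and 0.896 TPM in WT. The cytokine Mif, which also binds CXCR2, was more abundant than Cxcl1, at 524 and 387 TPM in PAD4-DN and at 654 and 432 TPM in WT. Its genotypes overlapped, with a log2 fold change of −0.36 (SE 0.27).

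Among the other mediators that act on neutrophils, none of the 14 genes tested passed, 10 had a log2 fold change above 0 and the median was 0.20. The median was −0.23 without PAD4-DN replicate 1, 0.74 without PAD4-DN replicate 2 and −0.02 without WT replicate 2. Lcn2, a siderophore-binding protein of neutrophil granules and epithelia, was at 2.05 and 3.14 CPM in PAD4-DN and at 1.54 and 0.912 CPM in WT. Il1b, a cytokine that induces ELR chemokines, was at 13.8 and 1.01 CPM in PAD4-DN and at 1.32 and 2.02 CPM in WT, with 1 library far above the rest. Csf1, the macrophage growth factor, was at 187 and 160 CPM in PAD4-DN and at 193 and 193 CPM in WT. Il17a had 0 counts in every library.

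Of 18 receptors and adaptors upstream of NF-kB, 8 had a log2 fold change above 0, the median was −0.01 and none passed. Il1r1, the signalling receptor of interleukin-1, was at 284 and 301 CPM in PAD4-DN and at 262 and 225 CPM in WT. Tlr4, the lipopolysaccharide receptor, was at 43.0 and 74.2 CPM in PAD4-DN and at 42.3 and 46.0 CPM in WT. Tnfrsf1b, a receptor for tumour necrosis factor, was at 3.32 and 1.63 CPM in PAD4-DN and at 1.45 and 1.51 CPM in WT.

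Of 19 transcription factors and kinases of these pathways, 12 had a log2 fold change above 0, the median was 0.15 and none passed. That median was 0.01 without PAD4-DN replicate 1 and 0.03 without PAD4-DN replicate 2. Nfkbiz, an inducible nuclear cofactor of NF-kB, was at 297 and 144 CPM in PAD4-DN and at 65.8 and 140 CPM in WT, a log2 fold change of 1.10 (SE 0.47, adjusted p = 0.988 by edgeR). It placed PAD4-DN replicate 1 highest and WT replicate 1 lowest, as Cxcl1 did. The NF-kB subunit Nfkb2 was lower in both PAD4-DN libraries, at 71.4 and 74.2 CPM against 85.5 and 92.6 CPM in WT (edgeR log2 fold change −0.29, unadjusted p = 0.0462; 1.42% of genes had an unadjusted p under 0.05 with PAD4-DN lower). Nfat5, an osmotic stress factor, was at 530 and 586 CPM in PAD4-DN and at 429 and 465 CPM in WT.

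The feedback inhibitors of NF-kB and the proteins that set mRNA decay had 10 of 15 log2 fold changes above 0, a median of 0.11 and no gene past the threshold. Zfp36l1, a protein that binds AU-rich elements and promotes decay, was at 89.2 and 92.1 CPM in PAD4-DN and at 74.1 and 70.1 CPM in WT (edgeR log2 fold change 0.33, unadjusted p = 0.0267). The decay factor Rc3h1 (Roquin-1) was at 106 and 109 CPM in PAD4-DN and at 79.7 and 93.5 CPM in WT, and the NF-kB inhibitor Tnip1 at 21.3 and 19.5 CPM against 25 and 24 CPM in the same order. Among genes that process or anchor chemokines, 6 of 7 were above 0 with a median of 0.22 and none passed. Leaving out PAD4-DN replicate 2 gave a median of 0.06, and leaving out WT replicate 2 gave −0.07. Cathepsin C (Ctsc), which activates neutrophil serine proteases, was at 25.1 and 17.9 CPM in PAD4-DN and at 14.4 and 14.9 CPM in WT (edgeR log2 fold change 0.56, unadjusted p = 0.0377). Mmp9, a gelatinase that trims ELR chemokines, was at 1.90 and 2.98 CPM in PAD4-DN and at 3.91 and 3.69 CPM in WT, and the heparan sulfate proteoglycan Sdc1 at 140 and 158 CPM against 156 and 112 CPM in the same order.

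Markers of other cell types also differed between libraries. Of 17 neutrophil markers, among them Cxcr2 and Csf3r, 8 were abundant enough to be tested. Each of these 8 had a log2 fold change above 0, against 51.5% of all genes, and none passed. Mmp8, at 28 and 15 counts in PAD4-DN and 9 and 4 in WT, could pass the low-count filter only through PAD4-DN. In PAD4-DN replicate 2, S100a8, S100a9, Csf3r, Retnlg and Trem1 lay below their WT mean CPM, and Cxcr2, Mmp8 and Il1r2 above. The 8 signs are therefore a description only. The median centred log2 CPM of these 8 markers was 1.39 and −0.57 in PAD4-DN and 0.49 and −1.02 in WT. The 17 markers summed to 71.9 and 17.4 TPM in PAD4-DN and 51.9 and 9.70 TPM in WT, mostly from S100a8 and S100a9, while Elane had 0 counts in every library and Ly6g at most 1. Macrophage and monocyte markers (13 of 13 detected) summed to 126 and 24.4 TPM in PAD4-DN and to 60.6 and 64.8 TPM in WT, and pan-leukocyte markers (6 of 6) to 68.0 and 41.8 TPM against 45.4 and 37.5 TPM in the same order. Itgb2 alone gave 42.1 and 38.7 TPM of the pan-leukocyte sum in PAD4-DN and 36.1 and 23.2 TPM in WT, and each of the other 5 genes was lowest in PAD4-DN replicate 2. PAD4-DN replicate 1, the library highest in Cxcl1, Cxcl2, Cxcl3 and Il1b, was also the highest for each of these 3 lists. For Cxcl3, which shares sequence with Cxcl2, that rank rested on 21 counts against 17 in WT replicate 1. PAD4-DN replicate 1 was highest for the fibroblast, endothelial and erythroid sums as well. It was also highest for the carcinoma sum, at 388 TPM against 316 TPM in PAD4-DN replicate 2 and 377 and 354 TPM in WT. The small sums of T cells, of B and dendritic cells and of mast cells were highest there too, but not that of keratinocytes. WT replicate 1 was lowest in Cxcl1 and Cxcl2. Yet its neutrophil sum (51.9 TPM) was above those of PAD4-DN replicate 2 (17.4 TPM) and WT replicate 2 (9.70 TPM). PAD4-DN replicate 2, the library highest in Csf3, was the lowest for the macrophage sum. Erythroid and platelet markers summed to 471 and 12.7 TPM in PAD4-DN and to 131 and 16.2 TPM in WT, and endothelial markers to 49.7 and 32.8 TPM against 30.2 and 27.0 TPM in the same order. Markers of T cells, of B and dendritic cells, of mast cells and of keratinocytes each summed to at most 7.03 TPM in any library. The part of these cells in the values of Cxcl1, Cxcl2, Cxcl3 and Csf3 was not tested.

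**Figure D4:**
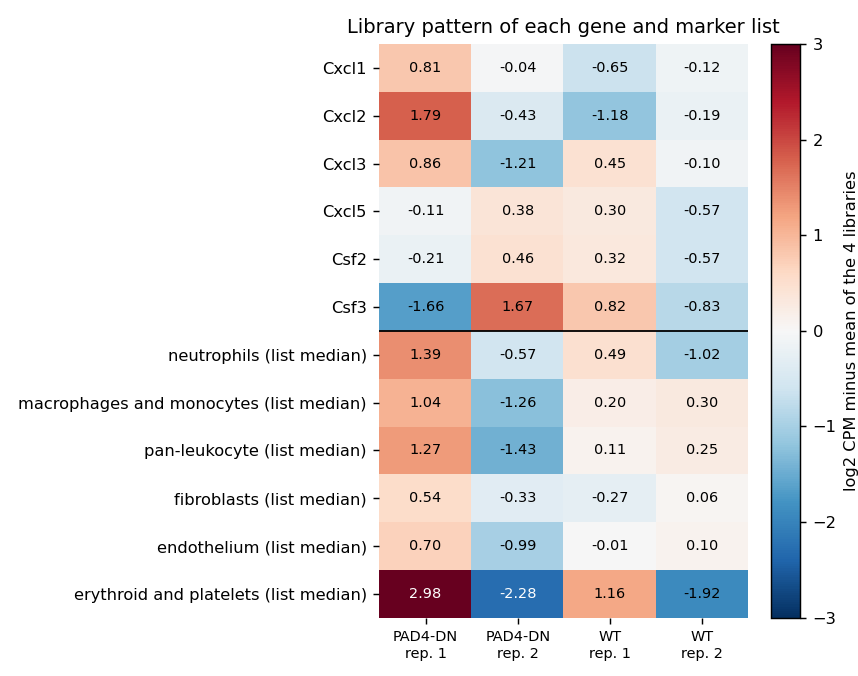
Log2 CPM of each gene minus its mean over the 4 libraries (upper rows), and the median of the same value over the tested members of each marker list (lower rows), in the 2 PAD4-DN and 2 WT libraries. Cxcl2 (1.79) and the macrophage (1.04) and pan-leukocyte (1.27) lists are highest in PAD4-DN replicate 1, where Csf3 (−1.66) is lowest.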

How the data were processed

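Per the labels' protocols, strand-specific poly-A libraries were made from 100 ng of total RNA with 13 PCR cycles and sequenced single-end over 75 cycles. The tool was kallisto and the build GRCm39, per the submitters' processing notes; no version is given there. The authors deposited estimated counts, unnormalized and often fractional, and TPM, scaled for effective length, for 117486 transcripts per library. Of these, 116408 matched a gene by identifier in GENCODE M21 (GRCm38, used for names and transcript sequences, not coordinates) and were summed per gene; 1078 were left out.

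Counts were rounded and tested with edgeR 4.0.16 in R 4.3.3 (TMM, filterByExpr, quasi-likelihood test, Benjamini-Hochberg adjustment at 0.05), PAD4-DN over WT, over 13718 genes; limma 3.58.1 and DESeq2 1.42.0 served as alternatives. The SE is the log2 fold change over the root of the F statistic. Patterns used log2(CPM + 0.1). With 2 libraries a group, the smallest p of an exact permutation test is 0.333 (two-sided). Scripts were tested on simulated data. From each of 7 lists of related genes the 3 with the smallest p were named, and every receptor. The 6 genes and all lists were chosen with earlier results of these data known. The libraries carried no stated molecular identifiers, so counts may include PCR copies.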

Additional observations from a re-analysis of the deposited data

How the results depend on the processing

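No alternative called any of the 6 genes. The count of genes with an adjusted p under 0.05 was 0 in the edgeR fit; it was 10 with DESeq2 (5 higher, 5 lower) and 10 with no low-count filter (4 higher, 6 lower), and 0 to 2 with single libraries left out, the highest without WT replicate 2, followed by 1 gene without PAD4-DN replicate 1. With limma-voom, DESeq2 size factors, a mean of at least 5 CPM, TPM on the log2 scale, an effective length offset or a false discovery rate of 0.1 it was 0.

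Across processing alternatives other than left-out libraries, the log2 fold change lay between 0.77 and 0.88 for Cxcl1, 1.31 and 1.95 for Cxcl2, −0.52 and −0.05 for Cxcl3, 0.19 and 0.34 for Cxcl5, 0.23 and 0.38 for Csf2, and 0.06 and 0.62 for Csf3, with no change of sign. With single libraries left out it ranged from 0.32 to 1.17 for Cxcl1, 0.17 to 2.44 for Cxcl2, −1.84 to 0.74 for Cxcl3, −0.15 to 0.74 for Cxcl5, −0.18 to 0.89 for Csf2, and −1.98 to 1.68 for Csf3. The sign turned for Cxcl3 without WT replicate 1 (0.31) or PAD4-DN replicate 2 (0.74), and, without WT replicate 2 or PAD4-DN replicate 2, for Cxcl5 (−0.15 and −0.05), Csf2 (−0.17 and −0.18) and Csf3 (−0.01 and −1.98). Of 105 median log2 fold changes of the 7 related lists under alternatives, 19 moved by more than the replicate spread, 11 of them among the 28 with a library left out. The median of the other CXCR2-binding genes (−0.21) was 0.25 without WT replicate 1, and those of the receptors, the mediators and the processing genes also changed sign with a library left out. The median of the upstream receptors and adaptors (−0.01) was 0.12 on the TPM scale. The cause was not tested. A fit that leaves 1 library in a group assumes that it varies like the other group.

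With the replicate block the count was 0, and the log2 fold change was 0.77 for Cxcl1 and 0.06 for Csf3. Same-numbered libraries deviated with a correlation of −0.34, and the crossed pairing, chosen after seeing the data, gave a count of 0. The order by mean TPM kept 4 of 6 ranks in the PAD4-DN libraries, 1 in PAD4-DN replicate 1, 4 in WT replicate 1 and 4 in WT replicate 2. Cxcl3 and Csf2 rest on at most 21 counts a library, which limits what can be resolved for them.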
